A study of Mus musculus with 12 samples.

Results

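Amino acid transporters of 7 solute carrier (Slc) families were described in mouse bone marrow mesenchymal stem cells (MSCs). The members were all genes whose symbol places them in the Slc1, Slc3, Slc6, Slc7, Slc36, Slc38 or Slc43 family, which gave 61 of the 55401 genes in the deposited table. The rule uses symbols and no expression value, although the families were picked with earlier results of these data known. A gene was tested when 3 or more of the 12 libraries had an FPKM (a read level scaled to transcript length and sequencing depth) of 1 or above, and 20 of the 61 met this. The other 41 did not, and 10 of those had 0 counts in every library.

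MSCs of C57BL/6 mice, bought from a commercial supplier, were left untreated, were given TGF-β1 at 5 ng/mL, or were given the same dose of TGF-β1 together with culture supernatant of monocytic (M-MDSC) or granulocytic (G-MDSC) myeloid-derived suppressor cells. Each of the 4 groups had 3 poly(A) RNA libraries. TGF-β1 drives MSCs toward myofibroblasts, and the study asked whether and how the supernatants inhibit this. RNA sequencing stood beside qPCR, protein assays and a mouse kidney injury model. The paper proposes that IL-15 is partly responsible for the effect of M-MDSC supernatant. The suppressor cells were raised from bone marrow with cytokines, sorted, and cultured in a medium supplemented with nonessential amino acids, whereas the MSCs were kept in another base medium. No group received fresh suppressor cell medium, so factors released by the suppressor cells and the amino acids or serum of their medium cannot be told apart. The sources do not say whether the 3 libraries of a group came from separate cultures, so p-values measure the spread between these libraries, which may be technical.

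Amino acid transporters set which amino acids a cell takes up, exchanges or releases. The Slc7 light chains reach the membrane as heterodimers with a heavy chain of the Slc3 family. Slc1, Slc6 and Slc38 members move neutral or acidic amino acids with sodium, and some Slc36 members do so with protons. Several of these genes belong to the amino acid response, in which the transcription factor ATF4 raises transporters, aminoacyl-tRNA synthetases and enzymes of amino acid synthesis. Myofibroblasts make collagen, a protein rich in glycine and proline.

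The libraries held 73977669 to 84565450 counts. Itgb1 (CD29) and Cd44, surface markers used to identify these MSCs, averaged 254 and 39.5 FPKM in untreated cells. Of 10 MSC markers 9 were tested, and 5 rose and 4 fell with TGF-β1 (16.1% and 17.9% of all tested genes did). Ly6a (Sca-1), also used to identify them, averaged 245 FPKM untreated, 16.2 FPKM with TGF-β1, and 92.5 and 66.9 FPKM with M-MDSC and G-MDSC supernatant, while Pdgfra, Thy1 and Vcam1 fell with TGF-β1 and Eng and Nt5e were at 0.766 and 0.407 FPKM untreated. The summed FPKM of Kit, Pecam1 and Ptprc, markers of other lineages, was at most 0.233 in any library. Some libraries stood apart. Of 12 liver markers such as Alb, 11 had 0 counts in all 6 libraries without supernatant. The summed liver FPKM was 69.1 in replicate 3 with M-MDSC supernatant and 75.7 to 81.4 with G-MDSC supernatant, but only 0.260 and 0.376 in M-MDSC replicates 1 and 2. Of 20 kidney markers such as Kap and Umod, 11 were at 0 counts without supernatant, and the summed kidney FPKM was 97.9 in M-MDSC replicate 3 against 27.2 and 18.2 in replicates 1 and 2. With G-MDSC supernatant the kidney sum was 60.0 to 74.0, with TGF-β1 alone 5.53 to 9.62 and untreated 30.2 to 35.9, the last mostly from Aqp1 (29.9 FPKM). RNA was read in bulk, so a change in the number of cells of a type and a change in RNA per cell cannot be told apart.

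Transporter levels in untreated MSCs spanned a wide range. Slc7a5 (ENSMUSG00000040010, chr8:121881150-121907694, GRCm38), the light chain of the large neutral amino acid exchanger, had the highest level at 73.6 ± 3.47 FPKM (SD, n = 3). Slc3a2 (ENSMUSG00000010095, chr19:8706882-8723369), its heavy chain CD98, followed at 68.4 ± 4.33 FPKM, a gap that lay near the spread between libraries. Slc38a2, a sodium-coupled carrier of small neutral amino acids, came next at 48.6 ± 2.62 FPKM, and the taurine transporter Slc6a6 at 29.4 ± 2.02 FPKM. At the other end, Slc7a7, a light chain for cationic and neutral amino acids, averaged 1.10 ± 0.144 FPKM, from about 327 counts per library. Each family had at least 1 tested member, with 7 in Slc7, 4 in Slc38, 3 in Slc6, 2 each in Slc1 and Slc36, and 1 each in Slc3 and Slc43.

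**Figure D1:**
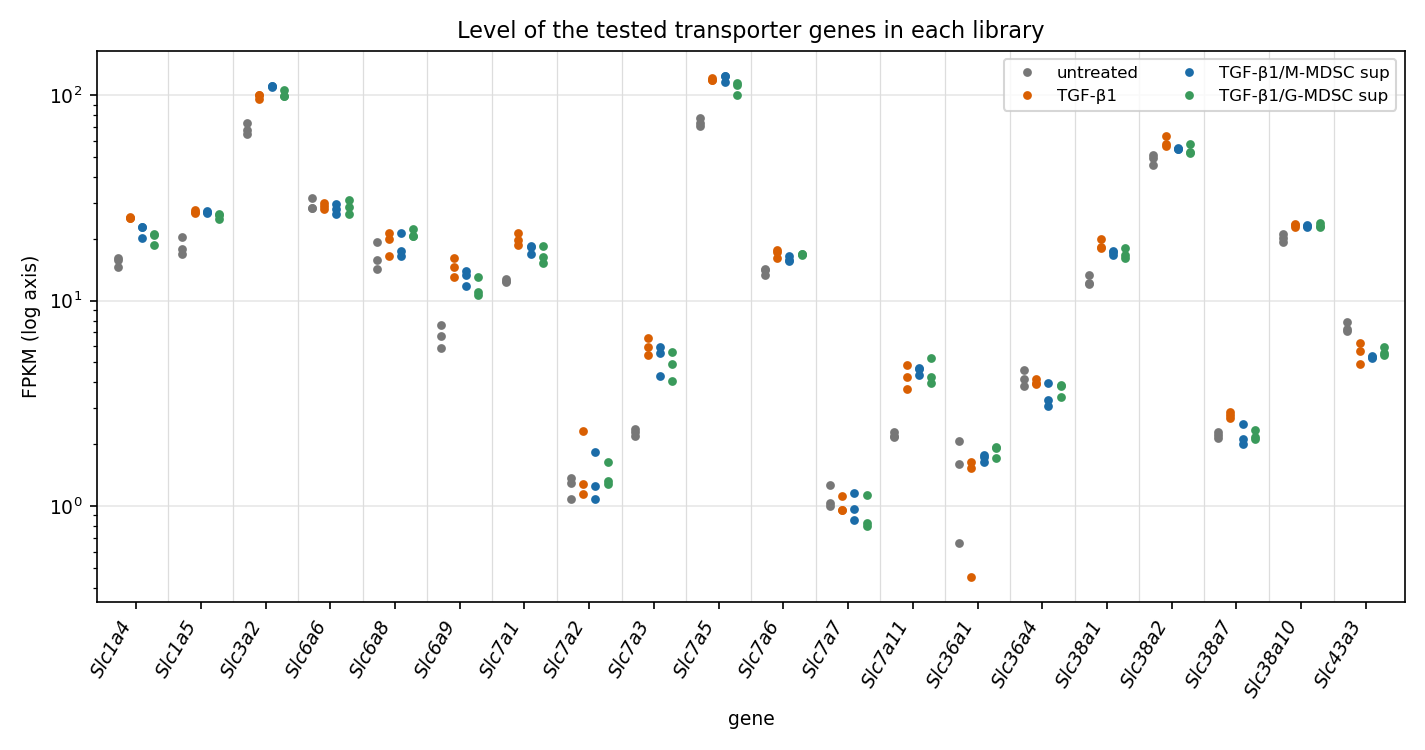
FPKM (log axis) of the 20 tested transporter genes, 1 point per library and 3 libraries per group (grey untreated, orange TGF-β1, blue TGF-β1 with M-MDSC supernatant, green TGF-β1 with G-MDSC supernatant). Slc7a5 and Slc3a2 lie highest, and the grey points of 13 genes lie below all their orange points.

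With TGF-β1, 13 of the 20 tested transporters rose, 1 fell and 6 did not pass the test. Carriers of cationic amino acids, glycine, cystine, and small and large neutral amino acids were among those that rose, with the largest changes in Slc7a3, Slc6a9 and Slc7a11. For comparison, 16.1% of the 12016 tested genes rose and 17.9% fell in the same contrast (edgeR quasi-likelihood test, adjusted p under 0.05). The 13 genes that rose were Slc1a4, Slc1a5, Slc3a2, Slc6a9, Slc7a1, Slc7a3, Slc7a5, Slc7a6, Slc7a11, Slc38a1, Slc38a2, Slc38a7 and Slc38a10. The gene that fell was Slc43a3. The log2 fold changes of the 20 had a median of 0.39, against 0.00048 for all genes tested. In 13 the TGF-β1 libraries all lay above the untreated ones and in 1 all below, against 16.6% and 30% of all tested genes. At a fold above 2 or below 0.5 with an unadjusted p under 0.05, the rule used in the study, 3 were higher (Slc7a3, Slc6a9 and Slc7a11) and 0 lower, against 2.6% and 4.14% of all tested genes.

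The cationic amino acid transporters Slc7a1, Slc7a2 and Slc7a3 bring in arginine, lysine and ornithine. Slc7a3 (chrX:101079210-101085405) was at 2.19, 2.31 and 2.37 FPKM in the untreated libraries and at 5.94, 5.41 and 6.56 FPKM with TGF-β1. The groups lay far apart, and the log2 fold change of 1.44 ± 0.14 (SE, adjusted p = 1.77e-05) was the largest among the transporters. Slc7a1, the widely expressed member, stood at 12.5, 12.7 and 12.4 FPKM untreated and at 21.4, 19.7 and 18.6 FPKM with TGF-β1. Its level rose by 0.72 ± 0.07 on the log2 scale (adjusted p = 2.09e-05). Slc7a2 gave 1.37, 1.09 and 1.3 FPKM untreated and 2.31, 1.29 and 1.14 FPKM with TGF-β1. Replicate 1 alone was high and the groups overlapped (adjusted p = 0.302). Per length, Slc7a1 remained the most abundant of these carriers in every group.

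Slc6a9 (chr4:117834506-117875198) carries glycine with sodium and chloride. Its untreated libraries held 6.69, 5.85 and 7.63 FPKM and its TGF-β1 libraries 14.5, 13.0 and 16.1 FPKM. The log2 fold change was 1.17 ± 0.12 (adjusted p = 2.29e-05), with no overlap between the groups. The other Slc6 members tested were Slc6a6 and the creatine transporter Slc6a8. For Slc6a6, the untreated libraries read 31.7, 28.1 and 28.3 FPKM and those with TGF-β1 30.0, 29.0 and 27.9 FPKM, so the groups overlapped (adjusted p = 0.749). Slc6a8 averaged 16.4 ± 2.56 FPKM untreated and 19.2 ± 2.48 FPKM with TGF-β1, a log2 difference of 0.29 ± 0.13 that did not pass the test (adjusted p = 0.122). Slc6a9 overlaps B4galt2 and Ccdc24 on the opposite strand, and 5 of the 20 tested members overlap such a gene. Whether the counts used strand is not given in the sources used here.

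Slc7a11 (ENSMUSG00000027737, chr3:49892526-50443614) is the cystine and glutamate exchanger that supplies cysteine for glutathione. It was at 2.28, 2.19 and 2.18 FPKM in untreated cells and at 4.87, 4.26 and 3.73 FPKM with TGF-β1. Every TGF-β1 library was higher, and the log2 fold change was 1.01 ± 0.11 (adjusted p = 3.88e-05). The Slc7a11 promoter was compared with those of the other members, since ATF4 target genes often carry a C/EBP-ATF response element, here searched as TGATGNAA on both strands of the window from 250 bases before to 50 bases after each RefSeq gene start (GRCm38.p6). Of the tested members, 12 had a RefSeq promoter entry and 3 of these held the core, and of all 61 members 43 had an entry and 4 held it. The same letters were found in 4.51% of the 27025 genes with an entry and in 3.97% of all 32851 promoters. Of the 13 genes that rose, 9 had an entry and 2 held it, Slc7a11 and Slc1a4. Slc7a7, which did not pass the test, held it as well. The sequences are shown 5′ to 3′ along each gene's own strand, the minus strand for all 3, with the core in capitals. Slc7a11 carries it in both orientations within bases 92 to 14 upstream of the start (chr3:50443627-50443705), and in Slc1a4 it spans the start (chr11:20332710-20332743). Slc7a7 has a match upstream of 1 of its annotated starts (chr14:54418052-54418111) and another that spans the same start (chr14:54417938-54417971) and lies upstream of another.
Slc7a11: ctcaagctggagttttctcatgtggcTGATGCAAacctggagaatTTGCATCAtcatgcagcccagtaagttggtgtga
Slc1a4: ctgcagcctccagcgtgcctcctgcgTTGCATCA
Slc7a7, upstream: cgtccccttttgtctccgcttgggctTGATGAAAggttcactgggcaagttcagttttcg
Slc7a7, across the start: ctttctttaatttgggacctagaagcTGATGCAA
Such a match describes letters only. The shorter antioxidant response core TGANNNNGC was found in 45.0% of genes with an entry, 41.3% of all promoters and 9 of the 12 members with an entry. It overlaps the downstream TGATGNAA match of Slc7a11. Slc1a5, Slc6a6, Slc6a8, Slc7a2, Slc7a3, Slc7a5, Slc38a1 and Slc43a3 had no entry.

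The CD98 heterodimer genes rose together. Slc7a5 went from 70.4, 77.3 and 73.2 FPKM to 119, 121 and 118 FPKM, a log2 fold change of 0.76 ± 0.05 (adjusted p = 1.48e-06). Slc3a2 went from 67.4, 64.7 and 73.2 FPKM to 100.4, 96.1 and 99.7 FPKM, a log2 fold change of 0.59 ± 0.05 (adjusted p = 2.89e-06). In neither gene did the groups overlap. Slc7a6, a light chain that exchanges cationic for neutral amino acids, was at 14.2, 13.4 and 14.1 FPKM untreated and at 16.1, 17.2 and 17.6 FPKM with TGF-β1, again without overlap (log2 fold change 0.35 ± 0.04, adjusted p = 0.000108). Slc7a7 averaged 1.01 ± 0.0975 FPKM with TGF-β1 and did not pass the test (adjusted p = 0.816). Summed over the 6 light chains known to pair with Slc3a2, light-chain FPKM was 90.9 ± 2.89 untreated and 142 ± 1.61 with TGF-β1, of which Slc7a5 made up 81.0% and 84.3%. The ratio of that sum to Slc3a2 was 1.33 ± 0.110 untreated and 1.44 ± 0.0505 with TGF-β1, a difference smaller than the untreated SD.

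Neutral amino acid carriers of the Slc1 family moved the same way. Slc1a4, which exchanges serine, alanine and cysteine, read 15.7, 16.1 and 14.6 FPKM untreated and 25.5, 25.3 and 25.3 FPKM with TGF-β1. The TGF-β1 libraries were nearly equal and far above the untreated ones, and the log2 fold change was 0.77 ± 0.06 (adjusted p = 4.65e-06). Slc1a5, the glutamine exchanger, read 16.9, 20.4 and 17.9 FPKM untreated and 27.1, 26.7 and 27.5 FPKM with TGF-β1 (log2 fold change 0.62 ± 0.06, adjusted p = 1.70e-05). Untreated replicate 2 was the highest of its group and still lay below every TGF-β1 library.

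All 4 tested Slc38 members rose. Slc38a1 and Slc38a2 bring glutamine, alanine and other small neutral amino acids in with sodium. Slc38a1 was at 13.4, 12.1 and 12.2 FPKM untreated and at 20.0, 18.3 and 18.0 FPKM with TGF-β1, a log2 fold change of 0.64 ± 0.06 (adjusted p = 1.01e-05). Slc38a2 was at 50.9, 45.8 and 49.2 FPKM untreated and at 63.3, 56.4 and 58.2 FPKM with TGF-β1 (log2 fold change 0.34 ± 0.05, adjusted p = 0.000538). For both the groups stayed apart. Slc38a7, a lysosomal glutamine exporter, gave 2.21, 2.15 and 2.29 FPKM untreated and 2.77, 2.69 and 2.86 FPKM with TGF-β1 (log2 fold change 0.38 ± 0.09, adjusted p = 0.00571). Slc38a10 gave 20.1, 21.2 and 19.3 FPKM untreated and 23.7, 22.9 and 23.3 FPKM with TGF-β1, the smallest change that passed the test, at 0.26 ± 0.04 on the log2 scale (adjusted p = 0.000424).

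Slc43a3, which despite its family is known as a carrier of purine nucleobases, went the other way. It fell from 7.89, 7.24 and 7.09 FPKM to 6.20, 5.66 and 4.92 FPKM, a log2 fold change of -0.35 ± 0.08 (adjusted p = 0.00709), without overlap. Neither of the tested Slc36 members passed the test. Slc36a4 was at 4.60, 3.85 and 4.16 FPKM untreated and at 4.17, 3.98 and 3.93 FPKM with TGF-β1 (adjusted p = 0.979). Slc36a1, found on lysosomes, was at 2.08, 1.60 and 0.661 FPKM untreated and at 1.52, 0.450 and 1.64 FPKM with TGF-β1 (adjusted p = 0.773). In each of those groups 1 library was far below the other two, while all 6 supernatant libraries lay between 1.64 and 1.94 FPKM.

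**Figure D2:**
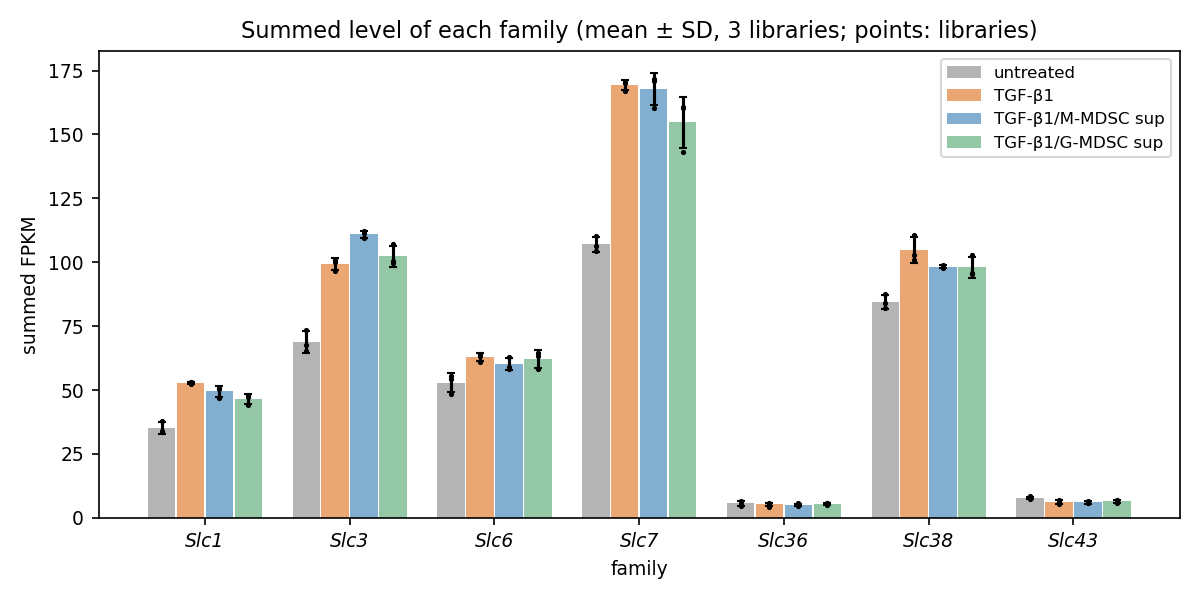
Summed FPKM of all members of each family, as mean ± SD of 3 libraries with each library as a point (grey untreated, orange TGF-β1, blue with M-MDSC supernatant, green with G-MDSC supernatant). Slc7 holds the tallest bars, and Slc7 and Slc3 are higher in all 3 TGF-β1 groups than untreated, while Slc36 and Slc43 stay low.

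Family totals followed the abundant members. The summed FPKM of all 61 genes was 362 ± 4.45 untreated and 500.4 ± 7.57 with TGF-β1. The Slc7 family went from 107.0 ± 2.95 to 169 ± 1.89, and the Slc38 family from 84.5 ± 2.82 to 105 ± 5.02. In the Slc36 family the sum was 5.65 ± 0.945 untreated and 5.23 ± 0.697 with TGF-β1, a difference within the spread. With the supernatants the total over all members was 498 ± 10.8 (M-MDSC) and 476 ± 13.1 (G-MDSC).

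Few transporters passed the test when a supernatant was added to TGF-β1. Both supernatant groups were compared with the same 3 TGF-β1 libraries, so these comparisons are not independent of each other. With M-MDSC supernatant 0 of the 20 rose (2.83% of all tested genes did) and 1 fell (1.95%). At an unadjusted p under 0.05, 1 was higher and 7 were lower (7.57% and 9.15% of all tested genes), and the 7 became 3 and 4 without TGF-β1 replicates 1 and 2, 4 without any of the M-MDSC libraries, and 2 or 3 with library totals only or limma. DESeq2 called 0 higher and 2 lower (3.9% and 3%). With G-MDSC supernatant 0 rose (3.1%) and 2 fell (2.46%). At an unadjusted p under 0.05, 0 were higher and 8 lower (7.91% and 9.25% of all tested genes), and the 8 became 5 without TGF-β1 replicate 1 and 4 without G-MDSC replicate 1. DESeq2 called 0 higher and 3 lower (4.56% and 3.68%). The median log2 difference from TGF-β1 was -0.11 with M-MDSC and -0.15 with G-MDSC supernatant, against -0.01 over all tested genes in each comparison. With M-MDSC supernatant 5 members lay below and 2 above every TGF-β1 library, as did 10.6% and 13.4% of all tested genes, and with G-MDSC supernatant 6 lay below and 1 above, as did 9.55% and 13.2%. By the study's rule 0 members were called in either direction with either supernatant, where 1.94% (M-MDSC) and 1.9% (G-MDSC) of all tested genes were higher and 0.241% and 0.275% lower.

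**Figure D3:**
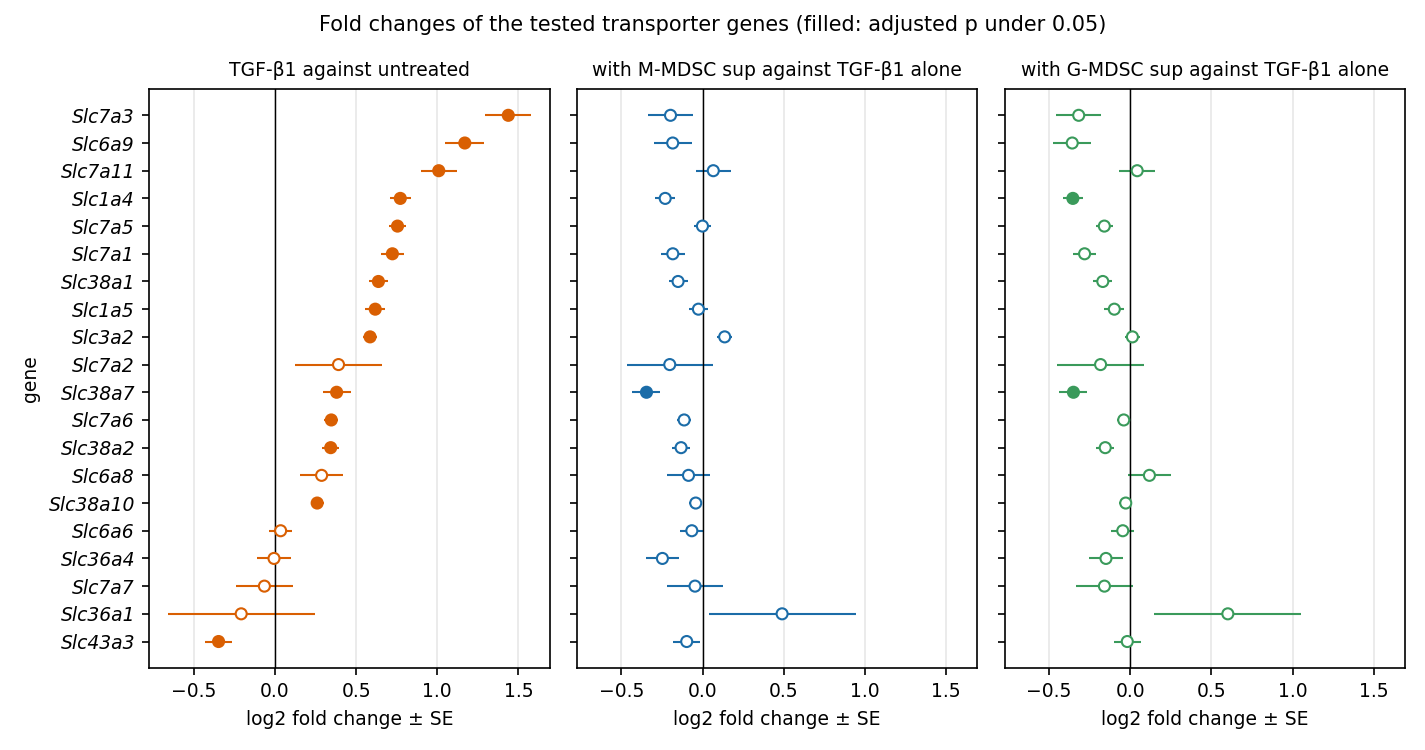
Log2 fold change ± SE of the 20 tested transporter genes in 3 comparisons, with filled points for an adjusted p under 0.05. In the left panel 14 points are filled, in the middle panel only Slc38a7 and in the right panel only Slc1a4 and Slc38a7.

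Slc1a4 and Slc38a7 were the members that fell. Slc1a4 stood at 18.7, 21.2 and 20.8 FPKM with G-MDSC supernatant, all below the TGF-β1 libraries and all above the untreated ones, a log2 difference from TGF-β1 of -0.35 ± 0.06 (adjusted p = 0.00756). With M-MDSC supernatant it stood at 20.1, 22.9 and 22.9 FPKM, again between those groups (log2 difference -0.23 ± 0.06, adjusted p = 0.0771). Slc38a7 was at 2.13, 2.01 and 2.51 FPKM with M-MDSC and at 2.17, 2.36 and 2.13 FPKM with G-MDSC supernatant. These libraries lay below every TGF-β1 library and overlapped the untreated ones. The log2 differences were -0.35 ± 0.09 with M-MDSC supernatant (adjusted p = 0.0497) and -0.35 ± 0.09 with G-MDSC supernatant (adjusted p = 0.0417), both close to the threshold and both lost in most alternative analyses. Without M-MDSC replicate 3 both calls were kept (adjusted p = 0.0121 and 0.0153). Leaving out any other single library removed the M-MDSC call, and any other except M-MDSC replicate 2 removed the G-MDSC call.

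Other members leaned lower without passing the test. Slc7a1 was at 16.9, 18.4 and 18.2 FPKM with M-MDSC and at 15.3, 16.3 and 18.5 FPKM with G-MDSC supernatant, below the TGF-β1 libraries in each case, with log2 differences of -0.18 ± 0.07 (adjusted p = 0.227) and -0.28 ± 0.07 (adjusted p = 0.0520). Without G-MDSC replicate 3 the second difference was called (adjusted p = 0.0101), as it was by DESeq2 and with upper-quartile scaling, 3 of 23 alternatives in all. Slc6a9 averaged 13.0 ± 1.15 FPKM with M-MDSC and 11.6 ± 1.29 FPKM with G-MDSC supernatant (adjusted p = 0.482 and 0.131). Slc7a3 averaged 5.29 ± 0.862 and 4.88 ± 0.787 FPKM (adjusted p = 0.526 and 0.274). Both overlapped the TGF-β1 range, and neither came down to the untreated libraries. Slc7a11 averaged 4.56 ± 0.181 FPKM with M-MDSC and 4.50 ± 0.660 FPKM with G-MDSC supernatant, against 4.29 ± 0.570 FPKM with TGF-β1 alone (adjusted p = 0.830 and 0.907).

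Of the 13 genes that TGF-β1 raised, 12 remained above every untreated library with either supernatant, the exception in both being Slc38a7. These genes were chosen for their rise from the same untreated to the same TGF-β1 libraries. Of all 1929 genes that TGF-β1 raised, 78.1% (M-MDSC) and 77.9% (G-MDSC) lay above every untreated library. The part of the rise that was left, taken as the difference of the mean FPKM from untreated relative to that with TGF-β1 alone, had a median of 80.3% with M-MDSC and 71.7% with G-MDSC supernatant. It ranged from 0.282% for Slc38a7 to 138% for Slc3a2 with M-MDSC supernatant. For Slc1a4 it was 65.8% with M-MDSC and 48.2% with G-MDSC supernatant, and for Slc38a2 59.4% and 53.1%. Choosing genes by the same TGF-β1 libraries can lower these values by itself, and no median over all 1929 genes was taken.

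The 2 supernatants were also compared with each other. None of the 20 members passed the edgeR test, against 0.0999% of all tested genes higher and 0.025% lower with M-MDSC supernatant, and DESeq2 also called 0 (0.641% and 0.366%). At an unadjusted p under 0.05, 2 were higher with M-MDSC supernatant and 0 lower (3.56% and 2.77% of all tested genes), and these were the partners of the CD98 heterodimer. There were 0 without G-MDSC replicate 1, 1 without M-MDSC replicate 2 or 3, and 3 without M-MDSC replicate 1. Slc3a2 was at 109, 111 and 111 FPKM with M-MDSC and at 99.6, 106 and 98.8 FPKM with G-MDSC supernatant, a log2 difference of 0.12 ± 0.05 (adjusted p = 0.676). Slc7a5 was at 116, 124 and 124 FPKM against 100.5, 115 and 112 FPKM, a log2 difference of 0.16 ± 0.05 (adjusted p = 0.601). In both genes the libraries of the 2 groups did not overlap, and this held in that direction for 3 members and 5.97% of all tested genes, and in the other for 2 members and 6.03%.

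The 41 untested members were rare in these cells. Of them, 31 had counts in at least 1 library. Those that reached 0.5 FPKM in some library were Slc43a2, Slc3a1, Slc38a6, Slc1a6 and Slc7a13. Slc43a2, a neutral amino acid carrier, had 131 to 236 counts in the libraries without supernatant, 810, 175 and 212 with M-MDSC and 331, 981 and 265 with G-MDSC supernatant. M-MDSC replicate 1 and G-MDSC replicate 2 stood far above the rest, and M-MDSC replicates 2 and 3 lay within the range without supernatant. Slc3a1, the heavy chain of the cystine transporter, had 52 to 82 counts untreated, 93 to 110 with TGF-β1, 62, 140 and 214 with M-MDSC and 209, 174 and 154 with G-MDSC supernatant, the last all above TGF-β1 alone (adjusted p = 0.439 in the fit without the FPKM minimum). Slc38a6 had 277 to 416 counts in all 12 libraries. When all genes with counts were fitted, without the FPKM minimum, 2 further members fell with TGF-β1, in a fit where 7.8% of all genes did. Slc1a3, a glutamate transporter, had 365, 308 and 338 counts untreated and 88, 73 and 71 with TGF-β1 (log2 fold change -2.07, adjusted p = 3.00e-05). Slc1a6, another glutamate transporter, had 167, 192 and 143 counts untreated and 37, 11 and 52 with TGF-β1 (log2 fold change -2.27, adjusted p = 0.0352). In both genes the groups lay far apart, and both stayed below every untreated library with either supernatant.

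A further set of rare members had counts almost only with supernatant. Slc6a13, Slc6a15, Slc6a18, Slc6a19, Slc7a9 and Slc38a3 had 0 counts in all 6 libraries without supernatant and counts in at least 5 of the 6 with it, a pattern shared by 0.388% of all genes in the table and 0.751% of those with any count. Slc6a19, the main neutral amino acid carrier of kidney and gut brush borders, had 22, 31 and 29 counts with M-MDSC and 45, 27 and 28 with G-MDSC supernatant. Slc6a18, a kidney carrier of the same kind, had 22, 48 and 136 counts with M-MDSC and 102, 36 and 77 with G-MDSC supernatant. Slc38a3, a glutamine carrier of liver and kidney, had 4, 12 and 82 counts with M-MDSC and 105, 84 and 131 with G-MDSC supernatant. M-MDSC replicate 3 was the highest of its group in Slc6a18 and Slc38a3 but not in Slc6a19. Slc7a13, a kidney carrier of acidic amino acids, had 4 counts in 1 untreated library, 10, 4 and 135 with M-MDSC, and 54, 63 and 81 with G-MDSC supernatant. These counts are a description: the genes were picked for being at or near 0 without supernatant. In M-MDSC replicate 3 and the 3 G-MDSC libraries the kidney and liver marker sums given above were higher than in all 6 libraries without supernatant. In M-MDSC replicates 1 and 2 the kidney sum lay above TGF-β1 alone but below every untreated library, where it was mostly Aqp1. The 11 kidney markers at 0 counts without supernatant had counts in both replicates, such as Kap (773 and 537) and Umod (214 and 223). The liver sum of 0.260 FPKM in replicate 1 lay within the untreated range of 0.162 to 0.313 FPKM. The plot of the counts shows them side by side. Their part in the result was not tested.

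**Figure D4:**
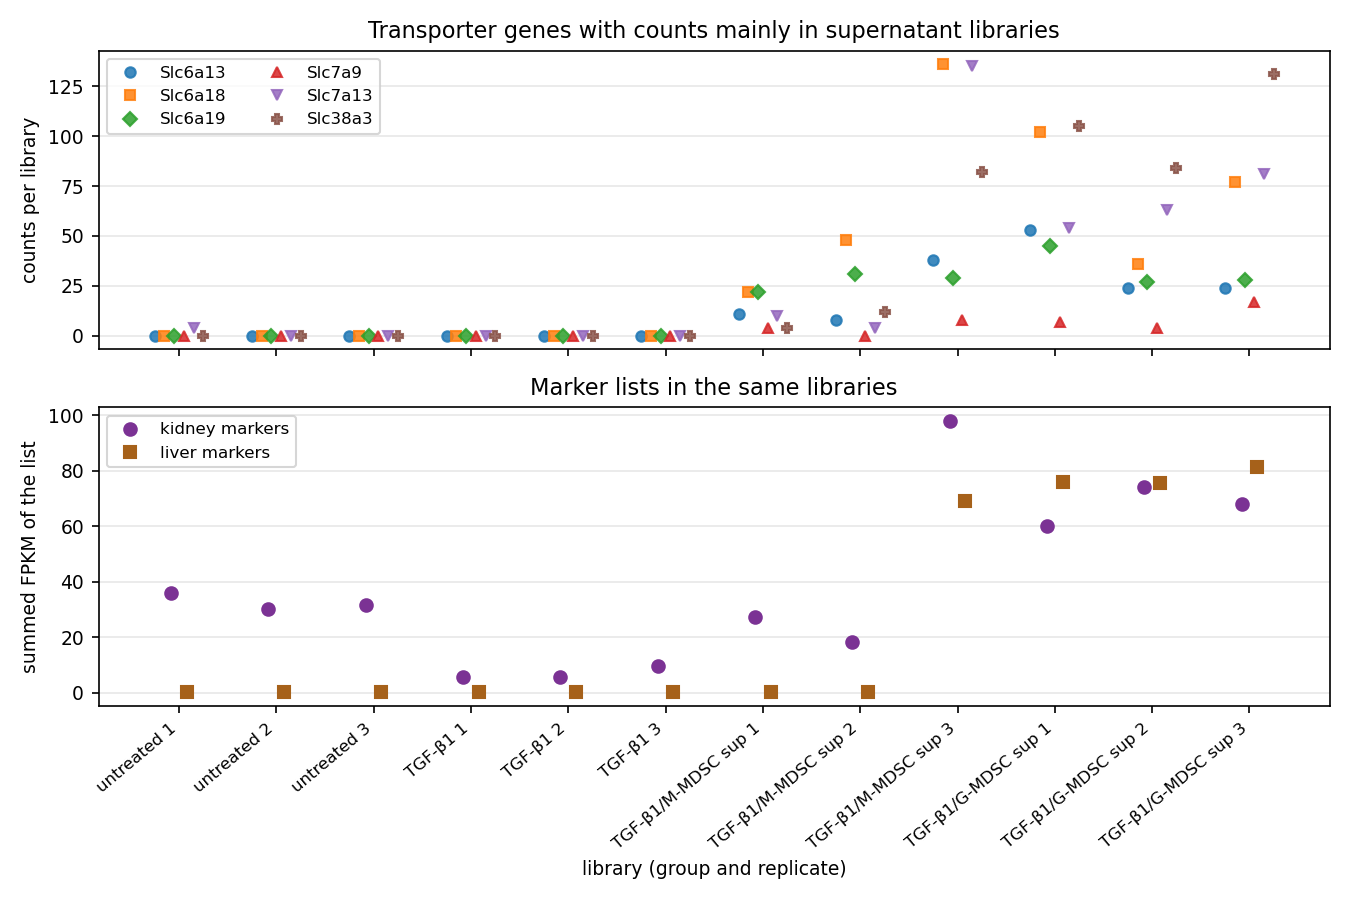
Counts per library of 6 rare transporter genes (upper panel) and summed FPKM of the kidney and liver marker lists (lower panel) in the same 12 libraries. The transporter counts are at 0 in the 6 libraries on the left except for 4 counts of Slc7a13, and the liver sum is high in replicate 3 with M-MDSC supernatant and in all 3 libraries with G-MDSC supernatant.

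Myeloid markers were read in the same way, since the supernatants came from myeloid cells. Of 14 markers, 2 had 0 counts in every library and 5 in all libraries without supernatant. The summed FPKM was 28.9 to 30.6 untreated, 15.6 to 17.0 with TGF-β1, 22.8 to 28.2 with M-MDSC and 28.4 to 30.8 with G-MDSC supernatant, most of it from Cd14. Of 6 tested markers 2 rose with each supernatant, Cd14 and Lyz2, and 0 fell. Of all tested genes 2.83% (M-MDSC) and 3.1% (G-MDSC) rose, and 1.95% and 2.46% fell. Lyz2 averaged 0.0572 FPKM with TGF-β1 and 1.54 and 1.87 FPKM with the supernatants. Cd68, Csf1r, Ly6g and Ly6c2 were not called with either supernatant, and Ptprc had at most 26 counts in any library.

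Other genes of amino acid handling were read beside the transporters. Of 36 amino acid response genes tested, 31 rose with TGF-β1 and 1 fell (16.1% and 17.9% of all tested genes did), and the median log2 fold change was 0.69. Cth, which makes cysteine, rose by 2.14 ± 0.07 (adjusted p = 5.15e-09), the kinase-like regulator Trib3 by 1.51 ± 0.07 (adjusted p = 8.67e-08) and the threonyl-tRNA synthetase Tars by 0.99 ± 0.03 (adjusted p = 3.24e-09). The gene that fell was Ddit3, a transcription factor of the stress response, at -0.29 ± 0.08 (adjusted p = 0.0144). Atf4 itself averaged 151 FPKM untreated and 261 FPKM with TGF-β1 and did not pass the test (adjusted p = 0.141). With M-MDSC supernatant 1 of the 36 fell (1.95% of all tested genes), the proline synthesis enzyme Pycr1 (log2 difference -0.37 ± 0.09, adjusted p = 0.0497). With G-MDSC supernatant 6 fell (2.46%), among them Pycr1 at -0.51 ± 0.09 (adjusted p = 0.00891), Cth at -0.33 ± 0.07 (adjusted p = 0.0168) and Trib3 at -0.34 ± 0.07 (adjusted p = 0.0200). The median over this list was -0.02 with M-MDSC and -0.15 with G-MDSC supernatant.

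Genes of amino acid sensing and of glutathione were read against the same shares of all tested genes, 16.1% higher and 17.9% lower with TGF-β1. Of 30 tested genes of the mTORC1 sensing machinery, which reports amino acid supply at the lysosome, 3 rose with TGF-β1 and 10 fell. Sesn2, which is also an amino acid response gene, rose by 0.99 ± 0.08 on the log2 scale (adjusted p = 4.72e-06), while the mTOR-binding inhibitor Deptor had a log2 fold change of -1.56 ± 0.14 (adjusted p = 7.10e-06). With the supernatants Sesn3, a sestrin that restrains mTORC1, fell in both groups, with log2 differences of -0.44 ± 0.07 (adjusted p = 0.00639) and -0.47 ± 0.07 (adjusted p = 0.00356). Of 13 tested glutathione and NRF2 target genes, the setting in which Slc7a11 is often placed, 7 fell with TGF-β1 and 1 rose. Nqo1 had a log2 fold change of -0.94 ± 0.04 (adjusted p = 2.21e-08) and Hmox1 of -0.46 ± 0.04 (adjusted p = 5.99e-06). The gene that rose was Chac1 (0.67 ± 0.08, adjusted p = 9.28e-05), a glutathione-degrading enzyme that is counted among the amino acid response genes too.

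Among 14 tested enzymes that use the transported amino acids, 4 rose with TGF-β1 and 3 fell, against 16.1% and 17.9% of all tested genes. Aldh18a1 and Pycr1, successive enzymes of proline synthesis that are also on the amino acid response list, rose by 0.77 ± 0.05 (adjusted p = 1.14e-06) and 1.23 ± 0.10 (adjusted p = 2.72e-06). Bcat1, which transaminates branched-chain amino acids in the cytosol, rose by 0.81 ± 0.03 (adjusted p = 2.60e-08), while its mitochondrial counterpart Bcat2 had a log2 fold change of -0.39 ± 0.08 (adjusted p = 0.00322). With G-MDSC supernatant Ass1, which makes argininosuccinate for arginine synthesis, rose by 1.3 ± 0.21 (adjusted p = 0.00411), and with M-MDSC supernatant its log2 difference was 0.48 ± 0.21 (adjusted p = 0.276). Ass1, which liver and kidney also express strongly, had 476, 335 and 535 counts with TGF-β1 alone. It had 1379, 1075 and 951 with G-MDSC and 511, 513 and 772 with M-MDSC supernatant. Among the M-MDSC libraries it was highest in replicate 3, as the liver and kidney marker sums were. Among the G-MDSC libraries it was highest in replicate 1, where the kidney sum was lowest at 60.0 FPKM. It was lowest in replicate 3, where the liver sum was highest at 81.4 FPKM. The part of liver and kidney transcripts in the result was not tested.

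**Figure D5:**
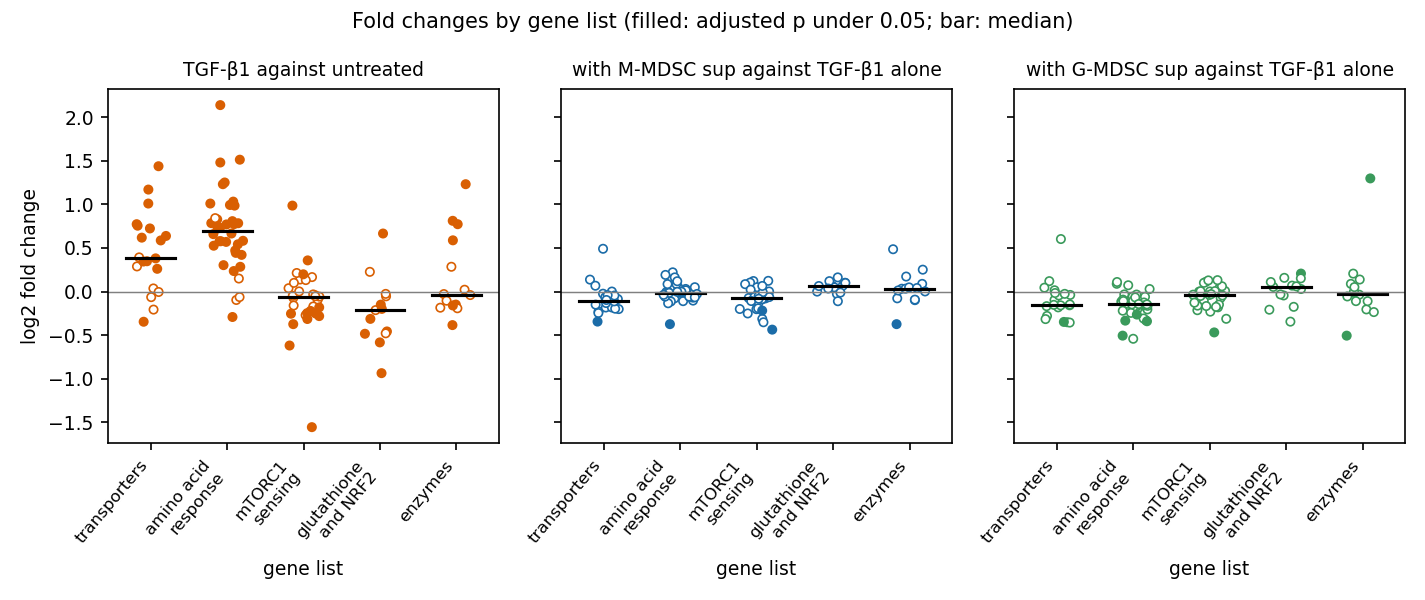
Log2 fold changes of the 20 tested transporters and of the tested genes of 4 lists in 3 comparisons, with filled points for an adjusted p under 0.05 and a bar at each median. With TGF-β1 the transporters (median 0.39) and the amino acid response genes (median 0.69) lie mostly above 0 and the glutathione and NRF2 genes mostly below, while with the supernatants every median lies close to 0.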

How the data were processed

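The deposited table holds raw counts and FPKM for 55401 genes in 12 poly(A) libraries, both made by the authors. Their reads were aligned to GRCm38, and the submitters' processing notes name cutadapt 1.9, HISAT2 2.0.4, StringTie 1.3.4d, edgeR and DESeq2. The counting tool and its strand setting are not given in the sources used here. FPKM in the deposited table was taken as the level of a gene; entries that stand for a count of 0 were set to 0. Among counts of 1 to 12, 44.3% were multiples of 4, so low counts are coarse.

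The 12016 genes for which 3 or more libraries reached 1 FPKM were tested with edgeR 4.0.16 in R 4.3.3: TMM scaling, all 4 groups in a single fit, two-sided quasi-likelihood F test, Benjamini-Hochberg adjustment over all genes tested, called at an adjusted p under 0.05. On simulated counts of 12016 genes for TGF-β1 against untreated, 156 of 200 planted changes were recovered with 13 false calls. Every planted change was larger than the called ones of Slc38a10, Slc38a2, Slc7a6, Slc38a7 and Slc43a3. They were also larger than the transporter calls with supernatant, so recovery at such sizes was not measured. Alternatives used DESeq2 1.42.0, limma 3.58.1 and other scalings, filters and library subsets. Libraries with the same replicate number did not deviate together (mean correlation -0.0038 over 18 pairs, 0.0020 over 36 pairs with different numbers), and no block was used. Members, lists and tests were chosen with earlier results of these data known. All tested members are named; library values are given for members called in any comparison, for the most abundant of each family and for Slc3a2, Slc7a5 and Slc7a11; of each other list at most 5 called genes per comparison were to be named. Other named genes and members, marker genes among them, were added after their values were seen. An enzyme on the list of amino acid enzymes is not reported here. Promoter sequences are from RefSeq (GRCm38.p6).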

Additional observations from a re-analysis of the deposited data

How the results depend on the processing

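The 13 rises and the fall of Slc43a3 with TGF-β1 kept their direction and call in all 23 alternatives fitted for each gene. By the study's rule, a fold above 2 or below 0.5 with an unadjusted p under 0.05, the counts were 3 higher and 0 lower with TGF-β1 and 0 lower with either supernatant. Without the FPKM minimum, 3 members fell with TGF-β1, 3 rose and 0 fell with M-MDSC supernatant, and 4 rose and 1 fell with G-MDSC supernatant. That fit held 28622 genes and 51 members, and of all genes 7.8%, 1.56%, 0.538%, 1.84% and 0.737% were called in the same order. With a minimum of 0.1 FPKM (18149 genes, 33 members) the counts were 4, 1, 0, 2 and 1, against 13.6%, 2.67%, 1.09%, 3.04% and 1.32% of genes. Without the minimum and without M-MDSC replicate 3, an alternative chosen after seeing the data, 4 fell with TGF-β1, 2 rose with M-MDSC and 5 with G-MDSC supernatant (7.6%, 1.24% and 2.06% of genes). In that fit 1 fell with M-MDSC and 2 with G-MDSC supernatant (0.252% and 0.688% of genes). The added rises are of genes at or near 0 counts without supernatant, so these tests restate that pattern.

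DESeq2 gave 2 lower with M-MDSC supernatant. That count was 0 with upper-quartile scaling, library totals only, the groups compared alone and both limma fits. With G-MDSC supernatant 1 was lower with library totals only, the groups compared alone and both limma fits, and it was Slc1a4 in each. Leaving out 1 library at a time gave 13 to 14 higher and 1 lower with TGF-β1 (Slc6a8 was added without untreated replicate 3, adjusted p = 0.0346), 0 to 1 lower with M-MDSC and 1 to 2 lower with G-MDSC supernatant. The Slc38a7 call was kept in 4 (M-MDSC) and 5 (G-MDSC) of 23 alternatives, and its adjusted p ranged from 0.0121 to 0.188 and from 0.0132 to 0.155. Slc1a4 with G-MDSC supernatant was called in all 23 (7.80e-05 to 0.0337). With the replicate number as a block, 0 fell with M-MDSC and 1 with G-MDSC supernatant.

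Among the transporter fold changes tallied over the alternatives, signs turned only in members not called with TGF-β1. Some were left out of that tally, among them Slc7a5 with M-MDSC supernatant. Its log2 difference from TGF-β1 was -0.00026 in the main fit and 0.0097 without the FPKM minimum. Fold changes of rare members and of other lists were not tallied over the alternatives. Slc36a4 was at 0.00072 on the log2 scale without the FPKM minimum, with or without M-MDSC replicate 3. Slc6a6 was at -0.026 with library totals only and at -0.020 and -0.021 with limma (pseudocounts 1 and 0.1). With single libraries left out, Slc36a1 ranged from -0.55 to 0.18, Slc36a4 from -0.069 to 0.050, Slc6a6 from -0.000186 to 0.079 and Slc7a7 from -0.15 to 0.032. The causes were not tested.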
